A study of Homo sapiens with 12 samples.

Results

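The genes described here are 9 members of the early response to growth factors and stress that lie outside the best known transcription factor families: IER2, IER3, IER5, IER5L, MCL1, CSRNP1, TIPARP, SGK1 and RHOB. They were matched by Ensembl identifier in the deposited gene tables, 9 of 58051 genes, and all 9 had enough counts to be tested among 27915 genes. RNA was sequenced from HCT116, an established human colon carcinoma line, in 12 libraries that fall into 6 groups of 2. Cells received an siRNA (a short duplex RNA that lowers the messenger RNA it matches) against PFDN2, against PFDN5 or siControl. PFDN2 and PFDN5 belong to prefoldin, a chaperone complex that holds unfolded cytoskeletal and other proteins before they reach a folding chamber. All groups, siControl included, were transfected and then deprived of serum for 48 h from 24 h after transfection, and each siRNA was sampled in the starved state and 90 min after serum was given back. All groups are of 1 cell line with 1 siRNA sequence per target, and nothing in the labels says whether the 2 replicates of a group came from separate cultures, so p-values measure only the spread between these libraries.

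Early response genes are switched on by signalling to transcription factors that are already present, without new protein synthesis, and their messenger RNAs are often short, poor in introns and quickly degraded. The IER genes encode small regulators named for this behaviour. IER2 is a nuclear protein, IER3 acts in survival and stress signalling, and IER5 is known as a partner of the heat shock factor HSF1, with IER5L as its paralog. CSRNP1 is a nuclear DNA-binding protein, MCL1 an anti-apoptotic BCL2 family protein with a short life, TIPARP a mono-ADP-ribosyltransferase known as a target of the aryl hydrocarbon receptor, SGK1 a kinase named for its induction by serum and glucocorticoids, and RHOB a membrane-bound GTPase that, unlike its close relatives RHOA and RHOC, is itself an early response gene.

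Promoter sequences from RefSeq (GRCh38.p14, 250 bases before to 50 after the start) were found for 7 of the 9 genes, and the start nearest to that of the leading transcript was taken. TIPARP has 3 RefSeq starts, and its window is that of transcript TIPARP-207, with a mean of 43.9% of the gene's estimated counts. Transcript TIPARP-201, with 34.3%, starts outside this window, so the TIPARP matches below are those of 1 start only. The 6 printed here set IER5 and IER5L, which did not rise beyond the spread in siControl, beside 4 genes that did, 5′ to 3′ on the gene's own strand. Capitals mark CCAAT, the short form TGACG of the cyclic AMP response element, the TATA box TATAAA and the heat shock unit pair GAANNTTC, each searched on both strands.
IER5 (chr1:181088450-181088749, plus strand): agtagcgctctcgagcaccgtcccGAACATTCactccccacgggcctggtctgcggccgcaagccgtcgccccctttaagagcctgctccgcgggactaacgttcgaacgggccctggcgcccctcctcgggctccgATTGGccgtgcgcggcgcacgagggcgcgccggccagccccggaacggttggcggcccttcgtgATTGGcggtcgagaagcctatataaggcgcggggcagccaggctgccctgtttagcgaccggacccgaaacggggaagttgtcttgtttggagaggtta
IER5L (chr9:129178212-129178511, minus strand): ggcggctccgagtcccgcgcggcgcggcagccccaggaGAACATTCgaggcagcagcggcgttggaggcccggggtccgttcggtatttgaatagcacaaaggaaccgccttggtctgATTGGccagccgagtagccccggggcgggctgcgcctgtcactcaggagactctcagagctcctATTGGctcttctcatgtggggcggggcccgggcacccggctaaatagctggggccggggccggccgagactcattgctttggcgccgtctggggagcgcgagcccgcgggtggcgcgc
IER2 (chr19:13150161-13150460, plus strand): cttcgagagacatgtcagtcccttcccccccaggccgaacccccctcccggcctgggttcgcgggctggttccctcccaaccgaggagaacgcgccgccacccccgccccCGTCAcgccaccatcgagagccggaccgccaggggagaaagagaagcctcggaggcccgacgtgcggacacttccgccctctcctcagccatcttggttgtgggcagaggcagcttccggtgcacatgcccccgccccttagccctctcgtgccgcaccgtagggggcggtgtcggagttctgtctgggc
CSRNP1 (chr3:39153542-39153841, minus strand): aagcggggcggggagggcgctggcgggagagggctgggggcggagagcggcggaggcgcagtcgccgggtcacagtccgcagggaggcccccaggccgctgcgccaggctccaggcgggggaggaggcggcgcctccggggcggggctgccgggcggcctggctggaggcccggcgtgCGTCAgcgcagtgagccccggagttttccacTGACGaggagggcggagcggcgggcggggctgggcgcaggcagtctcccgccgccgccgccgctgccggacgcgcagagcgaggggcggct
SGK1 (chr6:134174817-134175116, minus strand): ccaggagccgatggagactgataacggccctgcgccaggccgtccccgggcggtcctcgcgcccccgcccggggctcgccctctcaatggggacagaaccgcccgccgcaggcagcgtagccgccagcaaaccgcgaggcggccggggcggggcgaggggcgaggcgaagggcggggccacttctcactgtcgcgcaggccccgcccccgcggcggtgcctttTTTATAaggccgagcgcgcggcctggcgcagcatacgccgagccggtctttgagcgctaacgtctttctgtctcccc
RHOB (chr2:20446824-20447123, plus strand): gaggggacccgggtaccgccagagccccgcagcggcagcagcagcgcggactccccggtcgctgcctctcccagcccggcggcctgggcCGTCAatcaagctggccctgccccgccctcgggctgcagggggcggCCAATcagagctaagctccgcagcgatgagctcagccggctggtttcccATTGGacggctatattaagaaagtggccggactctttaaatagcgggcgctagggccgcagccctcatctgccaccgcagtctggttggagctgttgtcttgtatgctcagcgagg

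The IER5 and IER5L promoters each hold GAACATTC, a match to the GAANNTTC pair, starting at base -226 and base -212 from the start. Only these 2 of the 7 promoters hold the pair, which is present in 6.77% of the 35116 RefSeq promoters of the same length. CCAAT occurred in 4 of the 7 promoters, against 34.6% of all promoters, and each of the 4 held 2 matches. These lie 64 bases apart in IER5 and in IER5L, 66 in TIPARP and 49 in RHOB. TGACG was found in IER2, CSRNP1, TIPARP and RHOB, with 2 matches in CSRNP1, and in 24.6% of all promoters. SGK1 alone of the 7 held TATAAA, which 11.5% of promoters hold. No match to the full element TGACGTCA, to the AP-1 site TGANTCA or to the CArG box bound by serum response factor was found in any of the 7 windows, and the shares over all promoters were 1.85%, 7.71% and 1.29%. These matches describe letters in a window and say nothing about binding.

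AU-rich elements are known from messenger RNAs that are quickly degraded. In the 3′ untranslated region of the leading transcript, the AU-rich pentamer ATTTA was present in 8 of the 9 genes, against 66.0% of 15652 protein-coding genes tested. Its density was above the median of those genes, 1.42 per kb, in the same 8. The highest was 8.14 per kb in IER3, with 6 pentamers in 737 bases. TIPARP followed with 6.12 per kb and SGK1 with 4.92 per kb. IER2 had no pentamer in 1050 bases. The longer element TTATTTATT occurred 3 times in IER5, 2 times in TIPARP and 1 time in CSRNP1, that is in 3 of 9 genes, against 7.64% of protein-coding genes. The genes were also compact. IER3, IER5, IER5L and RHOB have no bases outside annotated exons, and 7 of the 9 are shorter than the median tested gene of 16872 bases. SGK1 (148867 bases) and TIPARP (33536 bases) are the longer ones.

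On GRCh38, IER2 lies at chr19:13150415-13154908 on the plus strand, IER3 at chr6:30743199-30744554 on the minus strand, IER5 at chr1:181088712-181092899 on the plus strand and IER5L at chr9:129175552-129178262 on the minus strand. MCL1 lies at chr1:150574551-150579738 and CSRNP1 at chr3:39141855-39154562, both on the minus strand. TIPARP is at chr3:156673235-156706770 on the plus strand, SGK1 at chr6:134169246-134318112 on the minus strand and RHOB at chr2:20447074-20449445 on the plus strand. IER5, CSRNP1 and RHOB overlap no other annotated gene. The other 6 overlap between 1 and 4 genes, among them the antisense genes IER3-AS1 and TIPARP-AS1, and since no strand option was set in the counting, reads of a gene and of an overlapping one cannot be told apart.

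Library totals ran from 59784425 to 136504590 gene-body counts. One library stood apart. In replicate 2 of siPFDN2 before serum, gene levels rose with the GC content of the transcript (Spearman correlation 0.81 across genes, against -0.46 to 0.12 in the other 11 libraries), and its replicate correlation across genes was 0.882, against 0.977 or more in the other 5 groups. The model draws on the spread in all groups, so this library enters the error of every comparison. PFDN2 was at 7.55 and 8.49 CPM (counts scaled to the size of the library) in siPFDN2 against 11.2 and 11.5 in siControl before serum, and at 8.73 and 9.47 against 16.3 and 19.5 after it. PFDN5 was at 41.0 and 44.2 CPM in siPFDN5 against 68.9 and 76.8 before serum, but the libraries labelled siPFDN5 after serum stood at 67.5 and 68.6 against 67.9 and 74.0 CPM in siControl. The target was not lower there, and every direction drawn from these 2 libraries rests on their label. Of 10 colon epithelial markers, 8 were above 1 CPM, the exceptions being CDX1 and LGR5, and their sum was 1842 to 2966 CPM. Fibroblast, leukocyte and endothelial markers summed to at most 17.9, 4.399 and 2.48 CPM, with COL1A1, CD68 and VWF making up most of each.

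Per length, the 9 genes spanned a wide range in starved siControl cells. Exonic FPKM (fragments scaled to library size and exon length) was highest for IER3, at 137 and 145 in the 2 libraries, which placed it above 99.1% of 16032 protein-coding genes tested. MCL1 at 30.4 and 31.5 FPKM and RHOB at 26.6 and 31.2 FPKM overlapped. IER5L (18.8 and 20.8 FPKM), TIPARP (13.4 and 14.3 FPKM), IER2 (9.56 and 10.98 FPKM), IER5 (8.37 and 8.97 FPKM) and CSRNP1 (4.35 and 5.13 FPKM) followed without overlap between neighbours. SGK1 was lowest by far, at 0.26 and 0.37 FPKM.

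Serum raised most of these genes within 90 min under each siRNA. In siControl 7 of the 9 rose, all except IER5 and IER5L, in a comparison where 2.87% of all genes changed, 2.47% higher and 0.394% lower (edgeR's quasi-likelihood test, Benjamini-Hochberg adjusted p under 0.05 over all genes). Under siPFDN2, 6 rose and IER5L fell, against 3.26% of all genes changed, 2.06% higher and 1.2% lower. Under the label siPFDN5, 6 rose, against 12.2% of all genes changed, 5.72% higher and 6.48% lower. CSRNP1, SGK1, TIPARP, MCL1, IER3 and RHOB rose in all 3 comparisons. The median log2 fold change of the 9 genes was 1.44 in siControl, 1.42 under siPFDN2 and 1.48 under siPFDN5, where the medians of all genes tested were 0.01, -0.02 and -0.03. Without replicate 2 of siPFDN2 before serum, 8, 7 and 9 of the 9 genes were called in the 3 comparisons, against 9.95%, 4% and 36.3% of all genes. The balance of calls over all genes moved with the scaling: under siPFDN2 there were 574 higher and 336 lower genes, but 570 and 2846 with library size only, and under siPFDN5 1598 and 1809, but 776 and 2470 with library size only and 1203 and 2187 with upper-quartile scaling. Under siPFDN2 it also turned with no filter on low counts (1878 higher and 3416 lower) and with DESeq2, which changes the filter, the scaling and the test together (1194 and 1835). In bulk RNA, a change in every cell and a change in the share of responding cells cannot be told apart.

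**Figure D1:**
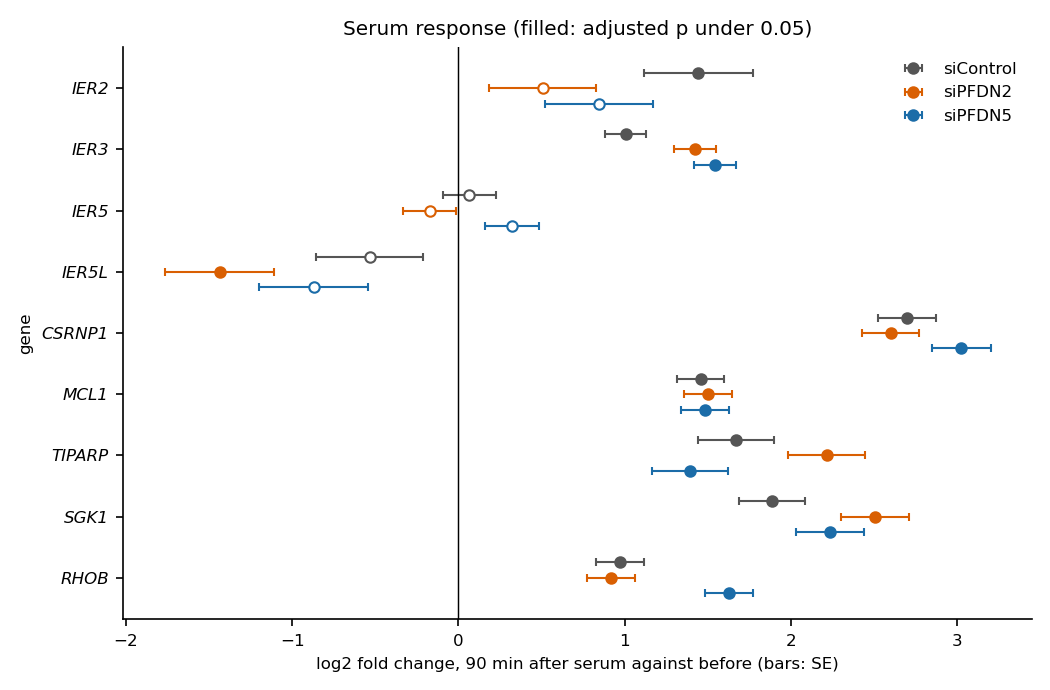
Serum response of the 9 genes under siControl, siPFDN2 and siPFDN5, as the log2 fold change 90 min after serum against before (horizontal axis), with bars for the SE of the fit and filled points for an adjusted p under 0.05. CSRNP1 had the largest response under each siRNA (2.70, 2.60 and 3.02), the points of IER5 lay near 0 and those of IER5L below it.

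The IER family divided. In siControl, starved cells gave 28.0 and 24.3 CPM of IER2, and serum-treated cells 85.7 and 56.8. Under siPFDN2 it moved from 28.6 and 65.2 to 59.9 and 73.6 CPM, and under siPFDN5 from 31.3 and 32.4 to 50.5 and 63.9. The groups overlapped only under siPFDN2, where replicate 2 before serum was above replicate 1 after it. The siControl rise was 2.72-fold (log2 1.44, SE 0.33, edgeR adjusted p = 0.0409) and lay close to the threshold: the call was lost with upper-quartile scaling (1.41), library size only (1.38), exon counts (1.496) and the replicate block (1.45), and in 9 of 12 fits that left out 1 library, and held without siControl after serum replicate 2 or without either library of siPFDN2 before serum. The log2 changes of 0.51 under siPFDN2 and 0.84 under siPFDN5 did not pass the test (edgeR adjusted p = 0.310 and 0.106), and the latter passed without either library of siPFDN2 before serum, at 0.85 in both fits. With all 12 libraries, IER2 under siPFDN5 passed in 4 of 8 alternatives, with no filter on low counts (0.87), with DESeq2 (0.87) and with the GC trend removed, without and with the replicate block (0.77 and 0.76). IER2 under siPFDN2 passed with the GC trend removed, without and with the block (1.08 in both).

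IER3, the most abundant of the set, behaved evenly. Before serum it lay between 139 and 160 CPM in all 6 libraries. After serum it stood at 310 and 314 CPM in siControl, at 368 and 400 under siPFDN2 and at 439 and 434 under siPFDN5. The libraries of each siRNA did not overlap between times, and after serum the 3 siRNAs did not overlap with each other. The rise was 2.01-fold in siControl (log2 1.01, SE 0.12), 2.68-fold under siPFDN2 (1.42, SE 0.13) and 2.91-fold under siPFDN5 (1.54, SE 0.13).

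IER5 had the smallest responses of the 9 genes. It was counted at 30.5 and 28.5 CPM before and 30.8 and 31.0 after serum in siControl, at 28.3 and 39.1 then 28.9 and 31.0 under siPFDN2, and at 27.0 and 26.9 then 34.7 and 32.7 under siPFDN5. The times overlapped under siPFDN2 and were closely adjacent in siControl. The log2 changes were 0.07, -0.17 and 0.32, each with an SE of 0.16, and none passed the test. With only replicate 1 of siPFDN2 before serum kept, the siPFDN2 value was 0.08 and the siPFDN5 change of 0.33 passed (SE 0.08, edgeR adjusted p = 0.0063).

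IER5L was the only member with lower values after serum under every siRNA. It went from 41.4 and 45.8 to 28.7 and 31.5 CPM in siControl, from 49.7 and 130 to 31.3 and 35.2 under siPFDN2, and from 48.0 and 56.0 to 27.5 and 29.3 under siPFDN5. All 6 libraries before serum were above all 6 after it. The log2 change of -1.44 under siPFDN2 passed the test (edgeR adjusted p = 0.0410), a call lost when any 1 of the 10 libraries outside siPFDN2 before serum was left out. It rested in its size on the library that stands apart: it was -0.58 without replicate 2 before serum and -1.96 without replicate 1, the remaining library being taken to vary like the other groups. In siControl (-0.53, SE 0.32) and under siPFDN5 (-0.87, SE 0.33) the change did not pass in the edgeR fit of all 12 libraries. With the same 12 libraries the siPFDN5 change passed in 4 of 8 alternatives, at -0.84 with no filter on low counts, -0.85 with DESeq2, -0.93 with the GC trend removed and -0.92 with that and the replicate block, and the siPFDN2 call was lost with exon counts (-1.46). Without replicate 2 of siPFDN2 before serum IER5L fell in all 3 comparisons, with edgeR adjusted p = 0.0029 in siControl, 0.0113 under siPFDN2 and 4.7e-05 under siPFDN5. IER5L overlaps 2 other annotated genes.

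**Figure D2:**
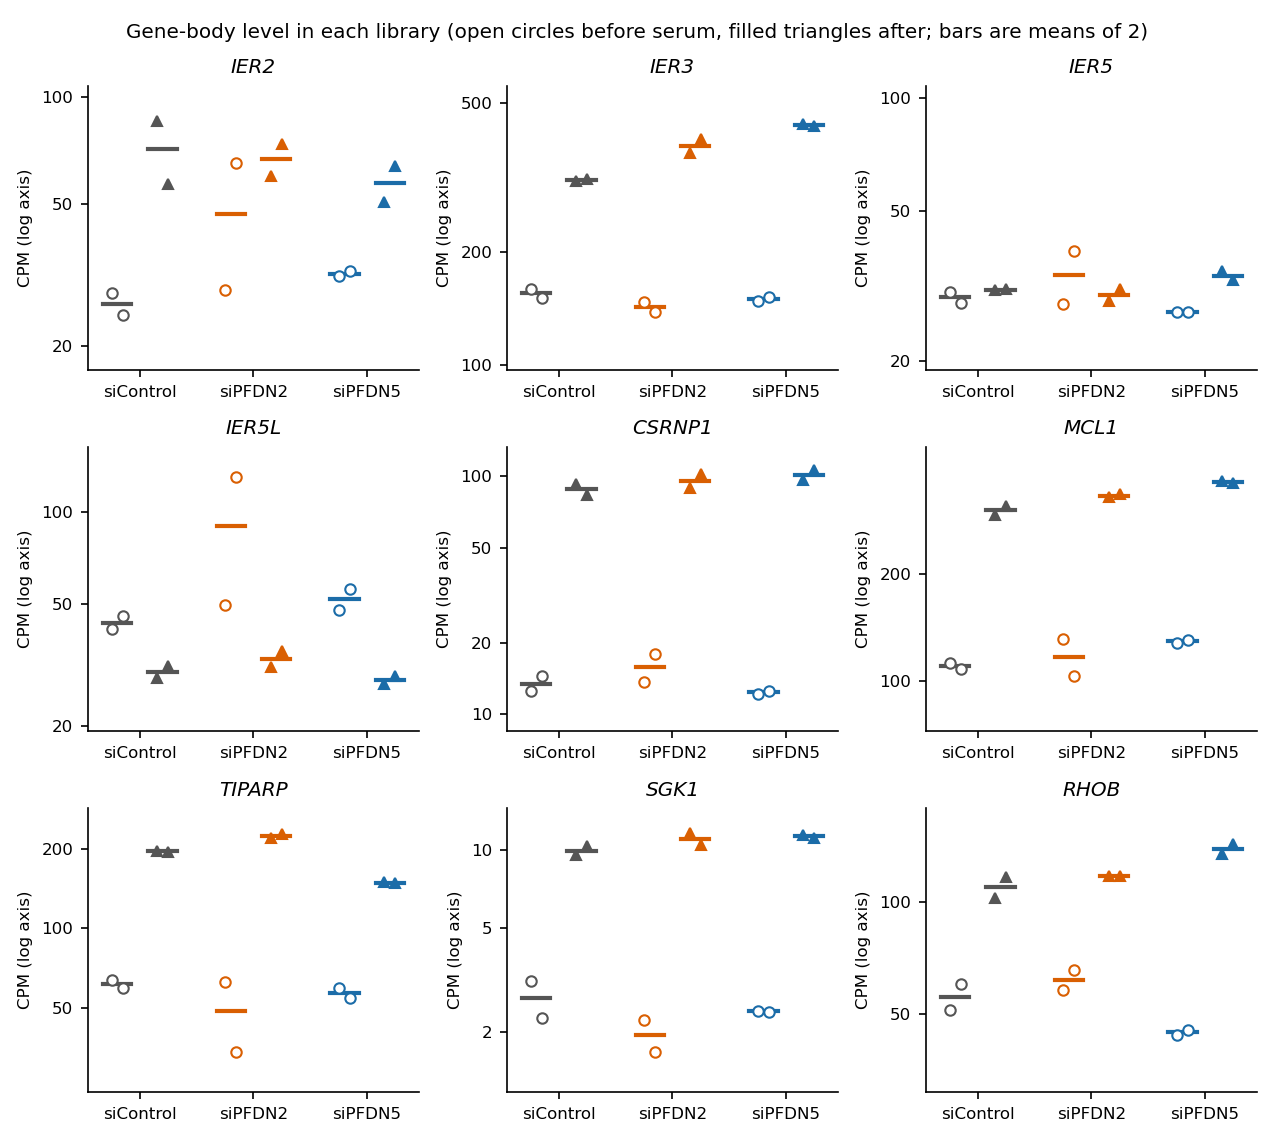
Gene-body CPM (vertical log axis) of the 9 genes in each of the 12 libraries, by siRNA, with open circles before serum, filled triangles after it and bars for the mean of 2 libraries. The libraries before and after serum did not overlap for CSRNP1, MCL1, TIPARP, SGK1, RHOB and IER3, and 1 library of siPFDN2 before serum was high for IER2 (65.2 CPM) and IER5L (130 CPM).

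CSRNP1 gave the strongest response. It rose from 12.5 and 14.5 to 92.0 and 83.3 CPM in siControl, from 13.6 and 17.8 to 89.0 and 102 under siPFDN2, and from 12.1 and 12.6 to 95.8 and 106 under siPFDN5. Every library after serum was several times higher than any before it. The fold changes were 6.50 (log2 2.70, SE 0.17), 6.06 (2.60, SE 0.17) and 8.14 (3.02, SE 0.18). Its relatives CSRNP2 and CSRNP3 did not share this. Neither rose under any siRNA, and CSRNP3 fell under siPFDN5 (log2 -1.27, SE 0.25), from a mean of 1.52 to 0.63 CPM.

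The rise of MCL1 was close in size under the 3 siRNAs. Values went from 112 and 108 to 293 and 312 CPM in siControl, from 131 and 103 to 328 and 336 under siPFDN2, and from 128 and 131 to 364 and 361 under siPFDN5. Every library after serum was above every one before it. The rise was 2.74-fold, 2.84-fold and 2.80-fold (log2 1.46, 1.503 and 1.48, SE 0.14 each). Of its 13 relatives in the BCL2 family 12 were tested. PMAIP1, a BH3-only protein that binds MCL1, rose under each siRNA (log2 2.08, 2.52 and 2.12, SE 0.22 each). BCL2L11, another BH3-only protein, rose in siControl (0.74, SE 0.14), where its mean went from 25.3 to 42.1 CPM. The other 10 tested did not pass in any serum comparison.

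TIPARP rose from 63.8 and 59.4 to 197 and 195 CPM in siControl and from 62.8 and 34.1 to 221 and 229 under siPFDN2. Under siPFDN5 it went from 59.4 and 54.2 to 149 and 149. After serum the siPFDN5 libraries were thus below both others, and the 3 siRNAs did not overlap. The responses were 3.18-fold (log2 1.67, SE 0.23), 4.64-fold (2.21, SE 0.23) and 2.62-fold (1.39, SE 0.23). The siPFDN2 value includes the low library of that group, and was 1.84 without it. The siPFDN5 rise no longer passed without either siPFDN5 library before serum or without replicate 2 after it, at 1.46, 1.34 and 1.403. None of the 5 related PARP family genes on the list passed the test under any siRNA.

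SGK1 was scarce and strongly induced. Its counts gave 3.12 and 2.27 CPM before and 9.55 and 10.4 after serum in siControl, 2.22 and 1.67 then 11.6 and 10.5 under siPFDN2, and 2.405 and 2.38 then 11.5 and 11.1 under siPFDN5. No library before serum came near any after it, on raw counts of 151 to 290 before and 702 to 1398 after serum. The rise was 3.70-fold (log2 1.89, SE 0.20), 5.69-fold (2.51, SE 0.20) and 4.72-fold (2.24, SE 0.20). SGK2 and SGK3 did not rise, and SGK2, near 1 CPM, fell under siPFDN5 (log2 -1.63, SE 0.41).

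RHOB rose from 51.2 and 60.2 to 102 and 116 CPM in siControl and from 58.2 and 65.6 to 117 and 117 under siPFDN2. Under siPFDN5 it started lower, at 44.1 and 45.3, and ended higher, at 134 and 142 CPM. The siPFDN5 libraries lay below all others before serum and above all others after it. The fold changes were 1.96 (log2 0.97, SE 0.14), 1.89 (0.92, SE 0.14) and 3.09 (1.63, SE 0.15). The siControl rise no longer passed without siControl before serum replicate 1 (0.86), and the siPFDN2 rise without either siPFDN2 library after serum (0.93 and 0.92). Among its relatives RND3 rose under each siRNA (1.90, 2.57 and 2.15, SE 0.25 each), while RHOC passed only under siPFDN5 (0.55, SE 0.15), and RHOA in none.

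Between siRNAs, none of the 9 genes passed the edgeR test of all 12 libraries in the starved state or after serum. The test did not call the siRNA targets as lowered either. PFDN2 in siPFDN2 before serum was at log2 -0.50 (SE 0.16, edgeR adjusted p = 0.442). At either time, 0% of all genes were called lower in a knockdown than in siControl. A count of 0 here thus does not show that levels were equal. Before serum, 0 of 9 were called in either knockdown against siControl, where 0% (siPFDN2) and 0.00716% (siPFDN5) of all genes were called. DESeq2 called 0 in both, against 0.0454% and 0.652% of the 48486 genes with any count. It may leave low-count genes among these without an adjusted p, so its shares here and below may be too low. At an unadjusted p under 0.05 in edgeR there were 3 for siPFDN2 and 1 for siPFDN5, against 3156 and 3432 of 27915 genes. The 3 were IER5L (log2 1.05), IER2 (0.84) and SGK1 (-0.47). IER2 and IER5L rest on replicate 2 of siPFDN2, and were 0.13 and 0.19 without it. With no filter on low counts both were called (0.90 and 1.11), against 2.23% of 48486 genes. Without replicate 1 instead, which leaves the library that stands apart as the group, 6 of the 9 were called, as were 41.8% of all genes. The gene for siPFDN5 was RHOB (-0.32, SE 0.14).

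After serum 0 of 9 were called for siPFDN2, against 0% of all genes, and DESeq2 also called 0. At an unadjusted p under 0.05 in edgeR there was 1 (IER3, log2 0.30, SE 0.12), against 1747 of 27915 genes. For the libraries labelled siPFDN5, edgeR called 0 of 9, against 0.00358% of all genes. At an unadjusted p under 0.05 there were 2 of 9, against 6032 of 27915 genes. DESeq2 called 1, IER3, among 1836 genes, 3.79% of the 48486 with any count, which include genes that it may leave without an adjusted p. IER3 was 1.399-fold higher there than in siControl (log2 0.48, SE 0.12, edgeR adjusted p = 0.0848) and RHOB 1.27-fold higher (0.34, SE 0.14, edgeR adjusted p = 0.198). TIPARP was at -0.40 (SE 0.22). Leaving out either library of siPFDN2 before serum, which enters this comparison only through the shared spread, brought 4 of 9 past the test, where 23.6% and 23.9% of all genes were then called. With replicate 2 left out these were IER3 (0.49), RHOB (0.34) and MCL1 (0.26) higher and TIPARP (-0.39) lower, with SEs between 0.07 and 0.09 and edgeR adjusted p between 0.0012 and 0.0216.

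The difference of the serum response from siControl was tested as an interaction. It was called for 0 of 9 genes under either siRNA and for 0% of all genes. At an unadjusted p under 0.05 in edgeR there were 2 of 9 for each. Of all 27915 genes, 1841 were under it for siPFDN2 and 5847 for siPFDN5. DESeq2 called 0 for siPFDN2 and 2, RHOB and IER3, for siPFDN5, where it called 3.5% of the 48486 genes with any count. For siPFDN5 minus siControl, RHOB differed by 0.66 (SE 0.20, edgeR adjusted p = 0.110) and IER3 by 0.54 (SE 0.17, edgeR adjusted p = 0.124). Without replicate 2 of siPFDN2 before serum 21.8% of all genes passed, and with them 2 of the 9, RHOB at 0.67 (SE 0.13, edgeR adjusted p = 0.0082) and IER3 at 0.55 (SE 0.11, edgeR adjusted p = 0.0086). The 2 differences for siPFDN2 were SGK1 at 0.62 (SE 0.28) and IER3 at 0.42 (SE 0.17). Both comparisons use the same siControl libraries, so IER3 being positive in each is not 2 independent observations. MCL1 differed least, by 0.05 and 0.03 with an SE of 0.20 each.

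**Figure D3:**
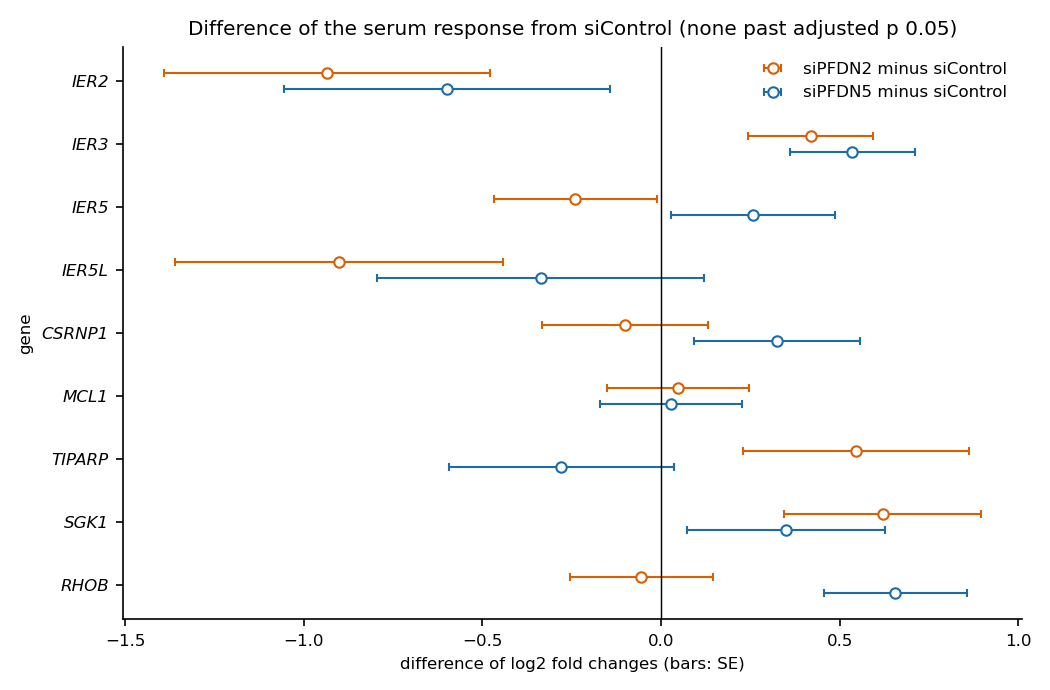
Difference of the log2 serum response of siPFDN2 (orange) and siPFDN5 (blue) from that of siControl (horizontal axis) for the 9 genes, with bars for the SE. All points are open since none passed an adjusted p of 0.05 with all 12 libraries; RHOB (0.66) and IER3 (0.54) under siPFDN5 lay more than 3 SE from 0.

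In the library that stands apart, some but not all of the 9 genes followed the GC trend of all genes. In siPFDN2 before serum, replicate 2 was 2.62-fold above replicate 1 for IER5L (65.0% GC) and 2.28-fold above it for IER2 (61.7% GC). It was 0.54 times replicate 1 for TIPARP (42.8% GC) and 0.75 times for SGK1 (41.1% GC). IER3, at 58.5% GC, did not follow, with a ratio of 0.94, and RHOB (57.3% GC) had a ratio of 1.13, or 0.17 on the log2 scale, where the 2 nearest GC bins had medians of 0.44 and 0.63. IER5 (49.8% GC) had a ratio of 1.38, or 0.47 on the log2 scale, where the nearest bin had a median of -0.02. Over all genes with a mean level of at least 3 on the log2 CPM scale, the median log2 ratio of the replicates ran from -0.94 in the lowest of 10 GC bins to 0.87 in the highest. The log2 serum response of IER2 under siPFDN2 was 0.51 with this library and 1.22 without it.

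**Figure D4:**
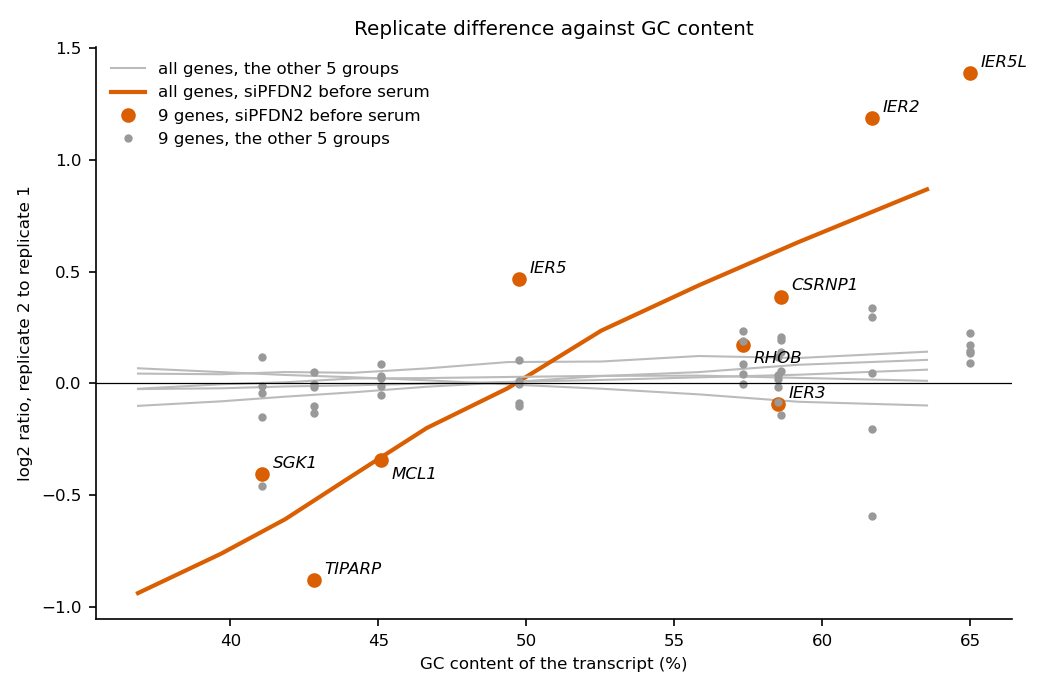
Log2 ratio of replicate 2 to replicate 1 (vertical axis) against the GC content of the transcript in percent (horizontal axis); lines are medians over 10 GC bins of all genes and points are the 9 genes, orange for siPFDN2 before serum and grey for the other 5 groups. The orange line rises from -0.94 to 0.87, with IER5L (1.39) and IER2 (1.19) above it.

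Reads outside exons were separated by subtracting exon from gene-body counts. For CSRNP1, the one member with introns and no overlapping gene, the share outside exons was 9.21% and 7.45% before serum in siControl and 4.99% and 4.29% after it. Under siPFDN2 it was 8.07% and 8.30%, then 4.80% and 3.57%, and under siPFDN5 9.06% and 10.2%, then 2.65% and 2.16%. All 6 libraries after serum were below all 6 before it. The ratio of intronic to exonic counts fell by 0.97 on the log2 scale, averaged over the siRNAs (SE 0.13, edgeR adjusted p = 5.71e-05), in a test where 26.8% of 4429 genes were called. Intronic CSRNP1 counts themselves were higher after serum, 3.66-fold in siControl, 3.06-fold under siPFDN2 and 2.02-fold under siPFDN5, where exonic counts were 6.76-fold, 6.33-fold and 8.79-fold higher. For TIPARP the intronic and exonic folds were 3.16 and 3.18 in siControl, 3.28 and 4.78 under siPFDN2 and 1.13 and 2.78 under siPFDN5. TIPARP-AS1 overlaps it, so TIPARP was tested only with all genes admitted, where the ratio changed by -0.30 averaged over the siRNAs (SE 0.11, edgeR adjusted p = 0.0636). The differences between siRNAs were not tested. Over all genes the share of counts outside exons was 22.8% and 25.9% before and 17.2% and 14.8% after serum under siPFDN5, 16.2% and 16.1% then 20.9% and 19.3% under siPFDN2, and 15.0% and 17.3% then 20.6% and 16.2% in siControl. It was thus lower after serum under siPFDN5 and higher under siPFDN2, with overlap in siControl, and its part in the CSRNP1 and TIPARP folds of each siRNA was not tested. SGK1 had only 4 to 31 intronic counts per library.

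Transcript shares, from estimated counts per transcript, moved for 2 genes and are given without a test. CSRNP1-201 held 82.7% to 89.3% of the gene's estimated counts in the 6 libraries before serum and 90.8% to 97.3% in the 6 after it. For SGK1, with 30 annotated transcripts in the files, SGK1-201 held 27.0% to 66.6% before and 77.9% to 82.3% after serum. The lowest of these, 27.0%, was in the library that stands apart, and the siControl values were 39.2% and 58.6% before serum and 78.9% and 78.7% after it. MCL1-202 was the leading form of MCL1 at a mean of 80.3%, with MCL1-204 at 17.1%, and IER2-201 held 87.8% of IER2. TIPARP was split among TIPARP-207 (43.9%), TIPARP-201 (34.3%) and TIPARP-204 (18.5%), and TIPARP-207 was listed at 0 in replicate 2 of siPFDN2 before serum. The 2 IER3 transcripts were listed at 0 in 9 libraries despite 9291 to 42262 exon counts, and their shares were not used.

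**Figure D5:**
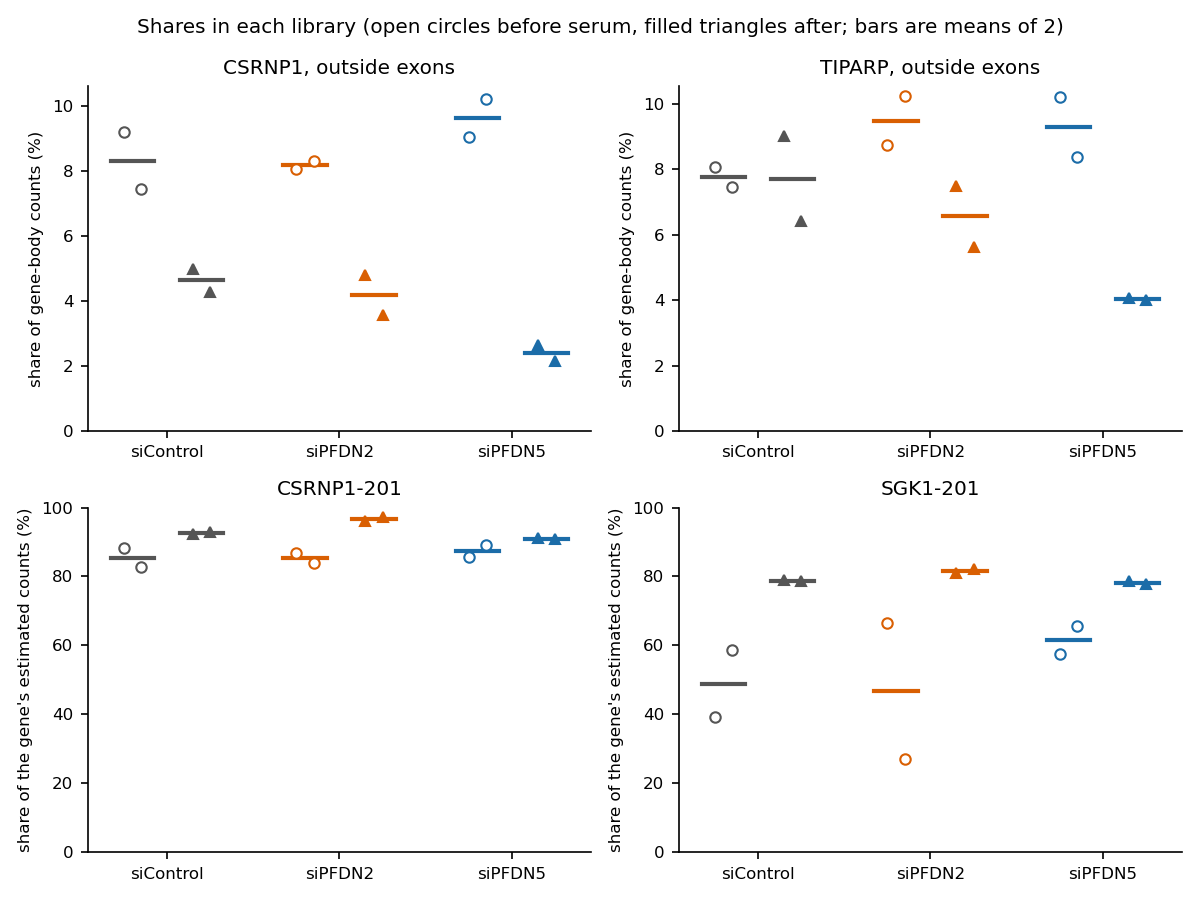
Share of gene-body counts outside exons for CSRNP1 and TIPARP (upper panels, percent) and share of CSRNP1-201 and SGK1-201 in the gene's estimated counts (lower panels, percent) in each of the 12 libraries, with open circles before serum, filled triangles after it and bars for the mean of 2. In CSRNP1 the share outside exons was 7.45% to 10.2% before serum and 2.16% to 4.99% after it, and SGK1-201 was above 77% in all libraries after serum.

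The wider program of early transcription factors, phosphatases and secreted factors was measured in the same libraries. Of 56 other early response genes, all tested, 44 rose in siControl, 41 under siPFDN2 and 41 under siPFDN5, and none fell, with median log2 fold changes of 2.01, 1.66 and 1.78. The largest in siControl were NR4A3 (8.27), FOSB (7.02), CYR61 (6.41) and CTGF (6.31). CSRNP1, at 2.70, was the only one of the 9 above the median of that list in siControl. Of the 24 relatives of the 9 genes that were tested, 3 rose in siControl, 2 under siPFDN2 and 3 under siPFDN5, where 2 fell.

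Across the 12 libraries the non-member closest to each gene in log2 CPM was found among 12103 to 12105 genes, as a description, with Pearson r over libraries that share the serum contrast. CSRNP1 was closest to OASL (r = 0.998), IER3 to CHMP1B-AS1 (0.994), MCL1 to PMAIP1 (0.994), SGK1 to PLK2 (0.993), RHOB to TNFAIP1 (0.993) and TIPARP to WEE1 (0.987). The 3 genes with weak or unstable serum responses had other neighbours: IER5L was closest to PPP1R26 (0.973), IER5 to TK1 (0.967) and IER2 to JUND (0.963). These 3 neighbours had 61.5%, 62.8% and 69.7% GC, where those of the other members had 35.1% to 52.6%. The library whose gene levels rose with GC content entered these correlations, and its part in them was not tested. CHMP1B-AS1 overlaps 2 other annotated genes, and WEE1 and PPP1R26 overlap 1 each, so their counts may hold reads of those genes. Among the 9 genes themselves, IER3 and MCL1 were closest (0.985), while IER5L reached at most 0.268 with any other member, IER5.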

How the data were processed

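Sample titles put 12 HCT116 RNA-seq libraries into 6 groups of 2. Per the labels' protocols, RNA was column-purified, treated with DNase and reverse-transcribed with random hexanucleotides, and 18S rRNA was depleted. Per the submitters' processing notes, HISAT2 0.12.2, featureCounts 1.5.2, kallisto 0.43 and GRCh38.p7 were used. The authors deposited raw counts per gene over gene bodies and over exons, made per the file headers by featureCounts on Ensembl release 87, requiring both mates, assigning a fragment to every gene it touches and ignoring strand. The 6 further columns in each table match no sample and were not used. The authors' deposited transcript files carry TPM in their names but hold estimated counts per transcript.

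The gene-body table entered edgeR 4.0.16 (R 4.3.3) with filterByExpr, TMM scaling, 1 fit of 6 group means over 12 libraries, the quasi-likelihood test, two-sided, and Benjamini-Hochberg adjustment over 27915 genes. SE came from the fold change and the test statistic, and the log2 CPM used a prior count of 2. Intronic counts (gene-body minus exon) were tested as an interaction with the library as a block among genes that overlap no other. Gene models and GC content were those of GENCODE release 29, which matched 57447 identifiers, and GC was known for 99.0% of tested genes. The 3′ untranslated region was that of the transcript with the highest mean estimated count (for IER3, the first of its 2). Both fits were also run on simulated counts with the same spread in every group and no GC trend. That setting holds no library like the one that stands apart, so it cannot show how the fits behave with it. Replicates differed beyond counting noise in each group (lowest chi-square per degree of freedom 114), so no library was counted as a copy. Across 15 pairs of groups, same-numbered libraries deviated together (r over 0.1) in 4. Differences between replicates also hold technical trends such as that with GC content, so this cannot tell whether same-numbered libraries belong together. The main fit did not pair them, and the replicate block did. Depth sets the precision of low genes, SGK1 above all.

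Named are the 9 genes, PFDN2 and PFDN5, up to 3 relatives per gene, the 4 other early response genes with the largest siControl response and the nearest gene by correlation. The genes, lists and motifs were chosen with earlier results of these data known. Alternatives were scaling by library size only or by upper quartile, no filter, DESeq2 1.42.0, exon counts, a replicate block, a GC trend removed (lowess, span 0.3, 3 iterations), both together, and each library left out.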

Additional observations from a re-analysis of the deposited data

How the results depend on the processing

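In the 3 serum comparisons the count called among the 9 genes stayed within 1.5 times under all 8 alternatives, and ran from 5 to 8 in siControl, 5 to 8 under siPFDN2 and 5 to 9 under siPFDN5 when 1 library was left out. IER5 in siControl turned to -0.0037 with library size only, and ranged from -0.0033 to 0.113 with 1 library left out. Under siPFDN2 it ranged from -0.377 to 0.078. For siPFDN2 against siControl before serum, 2 genes (IER2, IER5L) were called with no filter, against 2.23% of 48486 genes. The count also varied with 1 library left out. For siPFDN5 after serum, DESeq2 called 1 (IER3), the GC trend removed 1 (TIPARP, lower), the same with the replicate block 1, and leaving out 1 library 0 to 4. Of all 27915 genes, 13.3% were called for siPFDN5 after serum with the GC trend removed, and 8.88% with the replicate block as well. A count of 1 of 9 is close to these shares, so the TIPARP call does not set the 9 genes apart from all genes. The serum response difference of siPFDN2 gave 2 with no filter, against 1.37% of 48486 genes, and its count varied with 1 library left out. For siPFDN5 it gave 2 with DESeq2, and its count varied with 1 library left out. The RHOB difference was 0.83 without siControl after serum replicate 2. With all genes admitted, the intron test called 2 genes, CSRNP1 and SGK1, against 22.6% of 17390 genes. Library size only moved the median of all genes to -0.23 under siPFDN2 and -0.18 under siPFDN5 in the serum comparisons. The cause of these changes was not tested. With the replicate block (same-numbered libraries paired, correlation of deviations -0.32 to 0.59), counts were 6, 7 and 6 in the serum comparisons. Of all genes, 2.49%, 2.74% and 10.2% were called there. In all 6 other comparisons the count was 0. IER2 in siControl was lost with the block (1.45), upper-quartile scaling (1.41), library size only (1.38) and exon counts (1.496). Exon counts also lost IER5L under siPFDN2 (-1.46). IER2 and IER5L under siPFDN5 passed with no filter, DESeq2, the GC trend removed and the GC trend removed with the block. RHOB in siControl was lost without siControl before serum replicate 1 (0.86), RHOB under siPFDN2 without either library after serum, and TIPARP under siPFDN5 in 3 of 12 such fits. IER5L under siPFDN2 was lost in 10 of 12. Each such fit leaves 1 group with a lone library. The 2 libraries per group limit what could be called, and SGK1 rests on few counts before serum.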
